A study of Mus musculus with 35 samples.

Results

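The antiviral interferon effectors examined here are 10 named genes, Ifit1, Ifit2, Ifit3, Isg15, Usp18, Bst2, Rtp4, Ifitm3, Xaf1 and Ifi44, taken by name, with earlier results of these data known. Of the 10, 9 have a row among the 22099 genes of the striatal RNAseq table, and all 9 passed the filter on low counts that left 17639 genes to test. Xaf1 has no row under its symbol or its older name and was not analysed here. Levels are in CPM, counts scaled to a common library total and adjusted between mice by the trimmed mean of M-values (TMM), and differences are on the log2 scale of limma after voom, with p-values adjusted over all genes tested and a threshold of 0.05.

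The study asked whether lowering huntingtin in peripheral organs alters signs of Huntington's disease in the striatum, using B6 mice with 1 mutant knock-in allele (Htt Q111/+) and their Htt +/+ littermates, all female. From 2 to 10 months of age mice of both genotypes received weekly intraperitoneal injections of an antisense oligonucleotide (ASO) against both Htt alleles (Htt ASO, 50 mg/kg), of an off-target control ASO (50 mg/kg), or of saline (4 µL/g), and they were 299 to 304 days old at sacrifice. Every group held 6 mice apart from the 5 Htt +/+ mice on control ASO, and each of the 35 mice gave 1 library, from the right hemistriatum in all but 1 Htt +/+ mouse on Htt ASO. The ASO is delivered outside the brain, and the knock-in allele is present in every cell, so that neither the treatment nor the mutation is confined to the striatal cells whose RNA was read. The 6 groups share their strain, sex and age, and the saline and control ASO mice of each genotype serve as the controls of the Htt ASO mice.

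Interferons are cytokines that cells release on sensing viral nucleic acids. They bind receptors on neighboring cells, activate transcription factors through JAK kinases, and so switch on a large set of interferon-stimulated genes whose products block viral entry, translation and budding. In the brain, microglia, endothelial cells, astrocytes and neurons can all express such genes, and the present libraries, made from whole tissue, do not say which cells did; fewer cells of a type and less RNA per cell cannot be told apart either.

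Total counts per mouse ranged from 32200158 to 38641924. Striatal Htt, the gene the ASO targets in peripheral tissue, lay between 60.9 and 104 CPM in the 12 Htt ASO mice and between 65.3 and 101 CPM in the 11 control ASO mice, and the difference over genotype was -0.08 (SE 0.07, adjusted p = 0.967). The 9 markers of striatal projection neurons, which check the labelled tissue, summed to 7494 to 8775 CPM in Htt +/+ and to 5019 to 6006 CPM in Htt Q111/+ mice. Among the controls, 2 Htt +/+ control ASO mice stood apart: in replicate 1 the 6 choroid plexus markers summed to 1590 CPM against 148 CPM or less in every other mouse, and in replicate 2 both the 10 endothelial and the 4 blood markers summed to 427 CPM, above every other mouse. For the 9 genes, results that rest on these 2 mice are given with and without them, while the marker lists were read only with them. The sample titles carry an L number from 3 to 8 whose meaning they do not give, and L number 7 holds Htt Q111/+ mice only.

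Of the 9 genes 8 rose with Htt ASO relative to control ASO, in a comparison over both genotypes in which 0.935% of all genes tested were called. Ifi44 rose the most, by 3.23-fold, followed by Ifit1 (2.14-fold), Usp18 (1.98-fold), Isg15 (1.81-fold), Bst2 and Rtp4 (1.71-fold each), Ifitm3 (1.62-fold) and Ifit3 (1.44-fold). The 9th, Ifit2, differed by 1.18-fold (adjusted p = 0.0703). Against saline all 9 were called, with 1.47% of all genes tested called there. Control ASO against saline called none of the 9 and 0% of the genes tested, and genotype called none of the 9 against 39.8% of the genes tested.

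**Figure D1:**
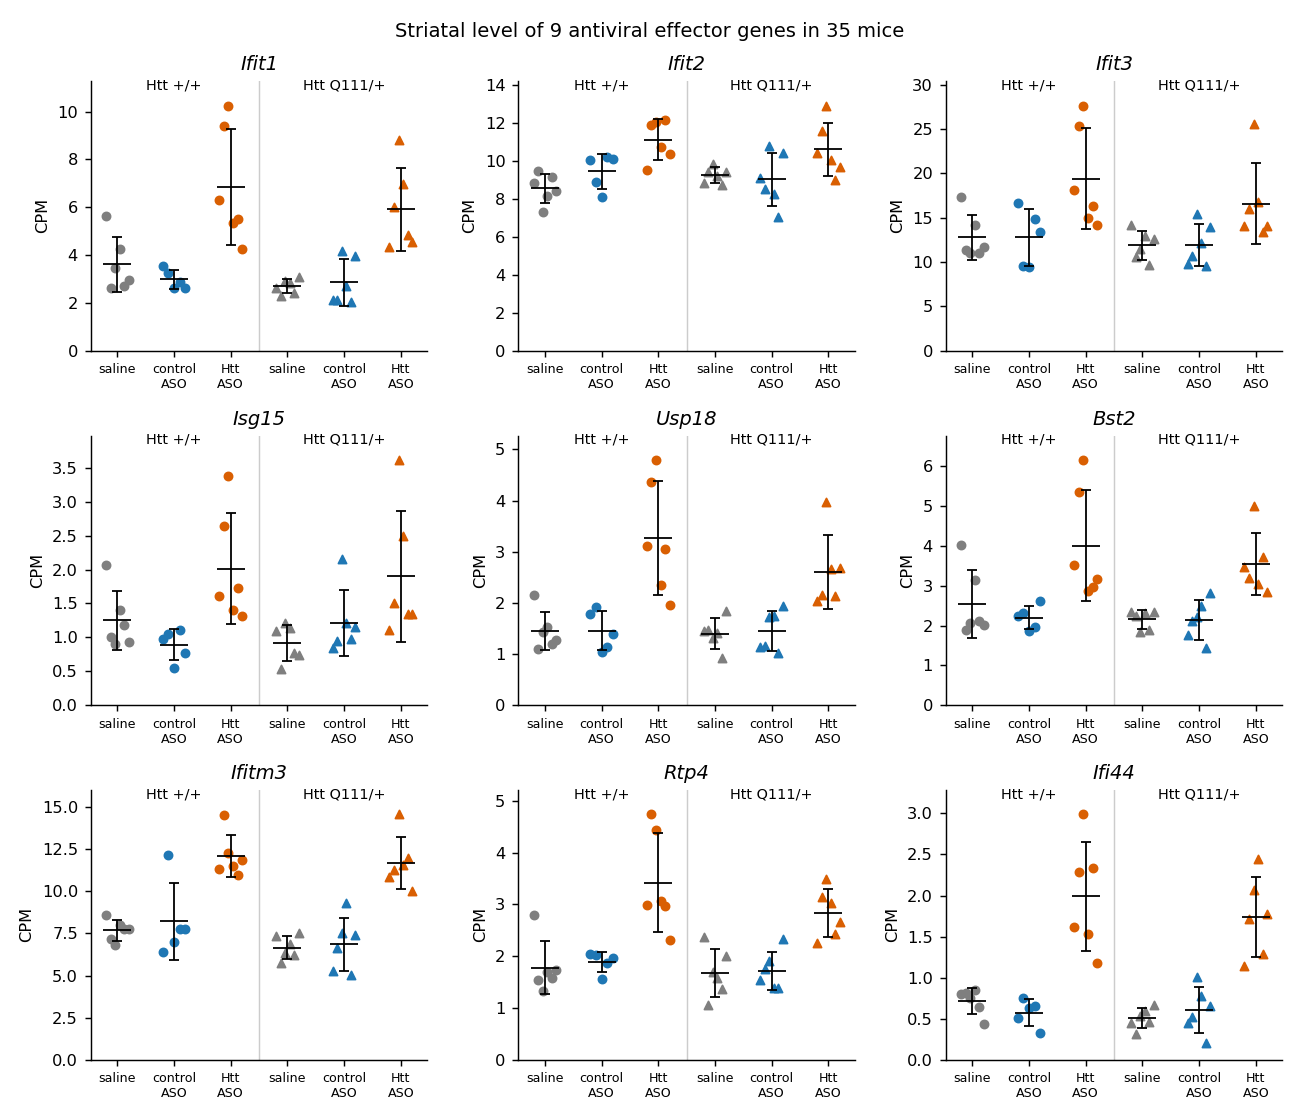
Striatal level in CPM (y axis, from 0) of each of the 9 genes in every mouse, by treatment and genotype (x axis). Circles are Htt +/+ mice, triangles Htt Q111/+ mice, and black bars the mean ± SD of the group. For Ifi44 every Htt ASO mouse, at 1.14 CPM or more, lay above every control ASO mouse, at 1.01 CPM or less, while for Ifit2 the groups overlapped.

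Ifit1, Ifit2 and Ifit3 lie near each other on chromosome 19 and encode tetratricopeptide repeat proteins that bind viral RNA or translation factors. On the GRCm38 build, with the gene models of GENCODE M21, they span chr19:34640871-34650009 (Ifit1), chr19:34550694-34576419 (Ifit2) and chr19:34583531-34588731 (Ifit3), all on the plus strand. The other genes lie on 6 other chromosomes, Isg15 at chr4:156199424-156200818 (minus strand), Usp18 at chr6:121245906-121270917 (plus), Bst2 at chr8:71534255-71537456 (minus), Rtp4 at chr16:23520291-23614222 (plus), Ifitm3 at chr7:141009586-141010770 (minus) and Ifi44 at chr3:151730922-151749960 (minus).

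Several of the 9 genes are textbook targets of the interferon-stimulated response element (ISRE), the site through which type I interferons act on transcription, and the stretches of promoter that hold its core in these genes are shown because the genes moved together. Promoters of RefSeq, 250 bases before to 50 after a start site on the GRCm38.p6 build, were matched by symbol for 8 of the 10 genes. Usp18 and Rtp4 were not among those matched. The core searched was GAAANNGAAA, or TTTCNNTTTC on the other strand, allowing matches that overlap each other. It was found in 5 of the 8 genes, at least 2 times in each, whereas 3.99% of the 27025 genes with a promoter (3.44% of 32851 promoters) held it and 0.266% of those genes held 2 or more in 1 promoter. Ifit2, Ifi44 and Xaf1 had no match, which says only that these letters are not in these windows. In the lines below each sequence is given 5′ to 3′ along the gene's own strand, with the matched cores in capitals.
Ifit1 (chr19:34640770-34640828, + strand): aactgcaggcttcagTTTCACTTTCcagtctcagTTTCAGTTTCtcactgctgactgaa
Ifit3 (chr19:34583358-34583431, + strand): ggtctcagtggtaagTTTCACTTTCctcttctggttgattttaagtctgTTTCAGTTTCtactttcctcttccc
Isg15 (chr4:156200860-156200911, minus strand): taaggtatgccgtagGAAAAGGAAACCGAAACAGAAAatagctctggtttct
Bst2 (chr8:71537568-71537617, minus strand): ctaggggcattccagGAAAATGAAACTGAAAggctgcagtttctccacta
Ifitm3 (chr7:141010716-141010742, minus strand): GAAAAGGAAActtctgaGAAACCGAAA

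In Isg15 the 3 matches overlap and form 1 run, and in Bst2 the 2 matches overlap. The cores of Ifit1 (at -104 and -85 bases from the start site) and of Ifit3 (at -156 and -122) read along the other strand. Those of Ifitm3 lie at 2 and 19 bases past the start site that RefSeq gives. The shorter GAS element TTCNNNGAA, which reads the same on both strands and serves the response to interferon gamma, was present in 3 of the 8 genes (Bst2, Ifitm3 and 1 of the 2 promoters of Ifit2), against 9.55% of all genes with a promoter. These matches are descriptions of sequence, not of binding, and the build differs from the mm9 build the counts were made on.

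**Figure D2:**
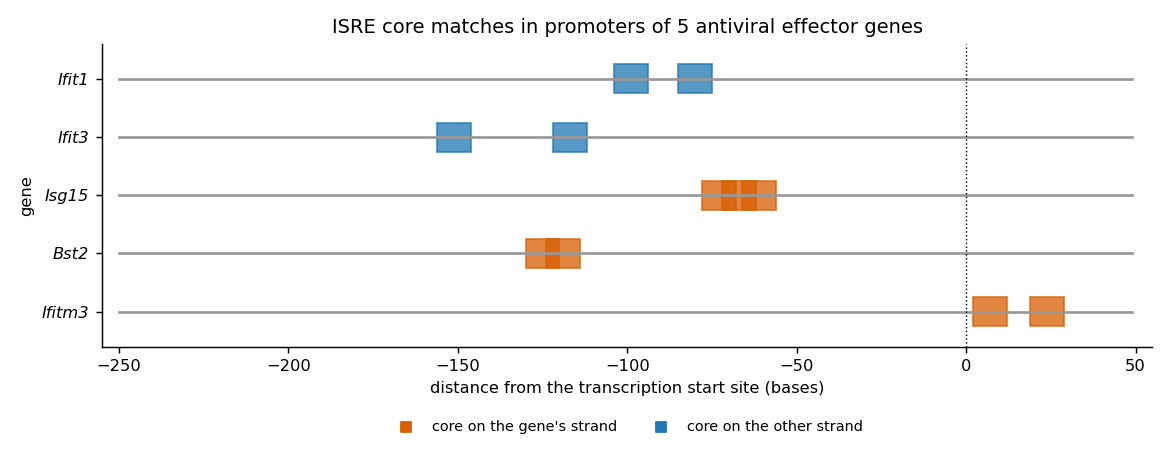
Positions of the ISRE core matches (boxes, drawn 10 bases wide) in the promoters of 5 of the genes, as the distance in bases from the transcription start site (x axis); orange boxes read along the gene's strand and blue boxes along the other. The matches of Ifit1, Ifit3, Isg15 and Bst2 begin between -156 and -66 bases, and those of Ifitm3 just past the start site.

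Among the 3 IFIT genes, Ifit1 showed the largest difference. In Htt +/+ mice its level was 3.53, 3.26, 2.62, 2.87 and 2.61 CPM in the 5 control ASO mice, 2.64 to 5.61 CPM on saline (median 3.21, n = 6) and 4.26 to 10.2 CPM on Htt ASO (median 5.90, n = 6). In Htt Q111/+ mice it ranged from 2.05 to 4.19 CPM on control ASO (median 2.43), from 2.31 to 3.08 CPM on saline (median 2.73) and from 4.34 to 8.82 CPM on Htt ASO (median 5.42), with n = 6 each. All Htt ASO mice thus lay above all control ASO mice of their genotype, and the saline mice of Htt +/+ overlapped them through replicates 1 and 4, at 5.61 and 4.27 CPM. The difference of Htt ASO from control ASO was 1.099 (SE 0.16) over genotype, with adjusted p = 5.24e-05 by limma after voom. It was 1.13 in Htt +/+ (adjusted p = 0.0143), a call lost without control ASO replicate 3, 4 or 5 (adjusted p from 0.0597 to 0.0699), and 1.07 in Htt Q111/+ (adjusted p = 0.0167). By an exact permutation test on log2 CPM, two-sided, p was 0.00433 in Htt +/+ and 0.00216 in Htt Q111/+, the smallest values these group sizes allow.

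Ifit3, whose SD on Htt ASO was 28.4% of its mean against 32.3% for Ifit1, was the most abundant of the family per kilobase. Its level in Htt +/+ mice was 16.6, 9.52, 9.49, 14.8 and 13.4 CPM on control ASO, 10.97 to 17.3 CPM on saline (median 11.5) and 14.2 to 27.6 CPM on Htt ASO (median 17.2). Htt Q111/+ mice had 9.57 to 15.4 CPM on control ASO (median 11.4), 9.65 to 14.1 CPM on saline (median 12.0) and 13.4 to 25.6 CPM on Htt ASO (median between 14.12 and 15.97). The highest values were on Htt ASO, but the groups overlapped in both genotypes. The difference over genotype from control ASO was 0.53 (SE 0.13, adjusted p = 0.0261), and it missed the threshold within Htt +/+ (0.59, adjusted p = 0.369) and within Htt Q111/+ (0.47, adjusted p = 0.495). That call was also lost, with adjusted p from 0.0532 to 0.0859, on leaving out any 1 of 7 mice, namely Htt +/+ control ASO replicates 2 and 3, Htt +/+ Htt ASO replicates 2 and 3, Htt Q111/+ control ASO replicates 1 and 5, or Htt Q111/+ Htt ASO replicate 3. Of the 50-base stretches of the Ifit3 transcripts 51.2% also occur in Ifit3b, a near copy with no row of its own in the table, and none of the Ifit3 counts were whole numbers (0%), so the value may hold reads of both genes.

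Ifit2 moved least. It stood at 10.0, 8.89, 8.07, 10.2 and 10.1 CPM in Htt +/+ mice on control ASO, at 7.32 to 9.46 CPM on saline (median 8.62) and at 9.51 to 12.2 CPM on Htt ASO (median 11.3). In Htt Q111/+ mice it ranged from 7.06 to 10.8 CPM on control ASO (median 8.81), from 8.71 to 9.83 CPM on saline (median 9.31) and from 9.02 to 12.9 CPM on Htt ASO (median 10.2). Only the Htt +/+ saline and Htt ASO groups did not overlap. The difference from control ASO was 0.24 (SE 0.06) over genotype, with adjusted p = 0.0703, and the call appeared with the L number as covariate (adjusted p = 0.0209), with DESeq2 (adjusted p = 0.0441), or on leaving out Htt +/+ Htt ASO replicate 1, Htt Q111/+ Htt ASO replicate 5, or Htt Q111/+ control ASO replicate 3 or 6 (adjusted p from 0.0241 to 0.0389). Against saline it was 0.29 (SE 0.06, adjusted p = 0.00737), and that call was lost without the 3 mice of highest level across the 9 genes (adjusted p = 0.0915).

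Isg15 and Usp18 encode the 2 sides of 1 system: ISG15 is a ubiquitin-like protein that is joined to viral and cellular proteins, and USP18 is the protease that removes it and that also damps signaling at the type I interferon receptor. Isg15 stood at 0.977, 1.05, 0.545, 1.11 and 0.772 CPM in Htt +/+ mice on control ASO, at 0.900 to 2.06 CPM on saline (median 1.09) and at 1.32 to 3.37 CPM on Htt ASO (median 1.67). In Htt Q111/+ mice it ranged from 0.836 to 2.15 CPM on control ASO (median 1.06), from 0.538 to 1.21 CPM on saline (median 0.927) and from 1.11 to 3.61 CPM on Htt ASO (median 1.43). The treatment groups separated from control ASO in Htt +/+ mice and overlapped in Htt Q111/+ mice, where replicate 3 on control ASO reached 2.15 CPM. Isg15 had the largest standard error of the 9 genes, 0.21 on a difference of 0.86 over genotype (adjusted p = 0.0330). Within genotype it missed the threshold (1.12, adjusted p = 0.236 in Htt +/+ and 0.60, adjusted p = 0.736 in Htt Q111/+). The call over genotype was lost, with adjusted p from 0.0502 to 0.112, on leaving out any 1 of 11 mice, which were Htt +/+ control ASO replicates 1, 3 and 5, Htt +/+ Htt ASO replicates 2 and 3, Htt Q111/+ control ASO replicates 1, 2, 5 and 6, and Htt Q111/+ Htt ASO replicates 3 and 4. Against saline the difference was 0.82 (SE 0.20, adjusted p = 0.0233), lost without Htt Q111/+ saline replicate 2 (adjusted p = 0.0619) and with the L number as covariate (0.84, adjusted p = 0.0596).

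Usp18 differed more evenly. Its level was 1.79, 1.92, 1.04, 1.14 and 1.396 CPM in Htt +/+ mice on control ASO, 1.095 to 2.15 CPM on saline (median 1.35) and 1.97 to 4.79 CPM on Htt ASO (median 3.08). With the mutant allele it ranged from 1.02 to 1.94 CPM on control ASO (median 1.44), from 0.917 to 1.85 CPM on saline (median 1.43) and from 2.04 to 3.96 CPM on Htt ASO (median 2.41). No control ASO mouse reached the lowest Htt ASO mouse of its genotype. The difference over genotype was 0.99 (SE 0.16, adjusted p = 0.000252) from control ASO and 1.01 (SE 0.16, adjusted p = 7.46e-05) from saline. Within genotype the difference from control ASO was called in Htt +/+ (1.13, adjusted p = 0.0139; lost without control ASO replicate 3 or 4, adjusted p from 0.0799 to 0.0933) and missed the threshold in Htt Q111/+ (0.85, adjusted p = 0.110), and the interaction was -0.29 (95% interval -0.94 to 0.37).

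Bst2 and Ifitm3 encode restriction factors of membranes. BST2, or tetherin, holds budding virions at the cell surface, and IFITM3 blocks the fusion of entering virions. Bst2 stood at 2.23, 2.31, 1.87, 1.96 and 2.62 CPM in Htt +/+ mice on control ASO, at 1.88 to 4.02 CPM on saline (median 2.08) and at 2.86 to 6.15 CPM on Htt ASO (median 3.35). In Htt Q111/+ mice the range was 1.43 to 2.82 CPM on control ASO (median 2.16), 1.83 to 2.34 CPM on saline (median 2.28) and 2.84 to 5.01 CPM on Htt ASO (median 3.33). Htt ASO mice lay above all control ASO mice in both genotypes, by a narrow margin in Htt Q111/+. The difference over genotype was 0.77 (SE 0.14, adjusted p = 0.00132) from control ASO and 0.67 (SE 0.14, adjusted p = 0.00257) from saline, and within a genotype it missed the threshold against either control, with adjusted p from 0.107 in Htt Q111/+ against control ASO to 0.133 in Htt +/+ against saline. In Htt +/+ it passed on leaving out Htt ASO replicate 4 (against control ASO, adjusted p = 0.0495) or saline replicate 1 (against saline, adjusted p = 0.0385), and in Htt Q111/+ against control ASO on leaving out Htt +/+ Htt ASO replicate 3, which enters only the shared estimate of spread. DESeq2 on all mice also called Bst2 in Htt +/+ against control ASO and in Htt Q111/+ against either control.

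Ifitm3, the most abundant of the 9 per kilobase, rose with little spread between Htt ASO mice, the SD being 11.5% of their mean. It stood at 6.42, 12.2, 6.98, 7.78 and 7.79 CPM in Htt +/+ mice on control ASO, at 6.83 to 8.58 CPM on saline (median 7.76) and at 10.98 to 14.5 CPM on Htt ASO (median 11.7). Htt Q111/+ mice had 5.06 to 9.30 CPM on control ASO (median 7.04), 5.72 to 7.52 CPM on saline (median 6.61) and 10.0 to 14.6 CPM on Htt ASO (median 11.4). One control mouse, Htt +/+ control ASO replicate 2 with 12.2 CPM, reached the Htt ASO range; it is also the mouse of high endothelial and blood markers, whose part in its Ifitm3 level was not tested. Over genotype the difference was 0.70 (SE 0.09, adjusted p = 2.35e-06) from control ASO and 0.73 (SE 0.09, adjusted p = 4.16e-07) from saline, and it was called in each genotype against each control. Without replicate 2 the difference from control ASO in Htt +/+ was 0.74 in place of 0.59. It was lost there on leaving out Htt +/+ Htt ASO replicate 2 or control ASO replicate 1, 3, 4 or 5 (differences of 0.51 to 0.59, adjusted p from 0.0564 to 0.119).

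Ifi44 and Rtp4 are less well understood. IFI44 is an interferon-induced cytoplasmic protein with antiviral and antiproliferative activity, and RTP4 was described as a chaperone of G protein-coupled receptors before its interferon response was known. Ifi44 was the least abundant of the 9, with 0.502, 0.751, 0.634, 0.653 and 0.327 CPM in Htt +/+ mice on control ASO, 0.435 to 0.852 CPM on saline (median 0.780) and 1.18 to 2.99 CPM on Htt ASO (median 1.95). In Htt Q111/+ mice it ranged from 0.209 to 1.01 CPM on control ASO (median 0.586), from 0.319 to 0.661 CPM on saline (median 0.498) and from 1.14 to 2.45 CPM on Htt ASO (median 1.75). No saline or control ASO mouse reached any Htt ASO mouse. The lowest of these values rests on 8 counts and the highest on 101. The difference over genotype was 1.69 (SE 0.21, adjusted p = 1.43e-06) from control ASO and 1.59 (SE 0.19, adjusted p = 1.24e-06) from saline, and it was called in each genotype against each control in every alternative, with adjusted p of 0.0358 at most.

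Rtp4 stood at 2.04, 2.01, 1.56, 1.87 and 1.96 CPM in Htt +/+ mice on control ASO, at 1.34 to 2.80 CPM on saline (median 1.64) and at 2.30 to 4.74 CPM on Htt ASO (median 3.03). Htt Q111/+ mice had 1.38 to 2.32 CPM on control ASO (median 1.65), 1.06 to 2.37 CPM on saline (median 1.63) and 2.25 to 3.48 CPM on Htt ASO (median 2.85). The groups separated from control ASO in Htt +/+ mice, and in Htt Q111/+ mice 5 of 6 Htt ASO mice exceeded the highest control ASO mouse, at 2.32 CPM. The difference over genotype was 0.77 (SE 0.13, adjusted p = 0.000401) from control ASO and 0.86 (SE 0.13, adjusted p = 3.85e-05) from saline. Within genotype it was called against control ASO in Htt +/+ (0.81, adjusted p = 0.0411) and not in Htt Q111/+ (0.73, adjusted p = 0.0784), with an interaction of -0.08 (95% interval -0.61 to 0.45). The call in Htt +/+ was lost, with adjusted p from 0.0506 to 0.210, on leaving out any of the 5 control ASO mice, Htt ASO replicate 2 or 3, or saline replicate 4.

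Per kilobase of transcript, the 9 genes kept 1 order in each treatment. On saline (n = 12) the order was Ifitm3 (10.6 ± 1.21 CPM per kilobase, SD), Ifit3 (7.05 ± 1.20), Bst2 (2.97 ± 0.798), Ifit2 (2.33 ± 0.18), Isg15 (1.43 ± 0.515), Ifit1 (1.19 ± 0.352), Rtp4 (0.931 ± 0.253), Usp18 (0.802 ± 0.183) and Ifi44 (0.210 ± 0.0598). Bst2 and Ifit2 lay within an SD of each other, as did Isg15 and Ifit1, Ifit1 and Rtp4, and Rtp4 and Usp18. On Htt ASO (n = 12) the same order ran from 17.6 ± 2.02 for Ifitm3 to 0.639 ± 0.196 for Ifi44, so that Ifi44 changed most from the lowest level. Lengths came from the longest protein-coding transcript of each gene in GENCODE M21, and not from the transcriptome the counts were made on.

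Within each genotype the calls were fewer. Htt ASO against control ASO called 5 of the 9 in Htt +/+ (Ifi44, Usp18, Ifit1, Ifitm3 and Rtp4), where 0.295% of all genes tested were called, and 3 in Htt Q111/+ (Ifitm3, Ifi44 and Ifit1), where 0.357% were. Against saline 6 were called in Htt +/+ (Rtp4, Usp18, Ifitm3, Ifi44, Ifit1 and Ifit2), with 0.726% of all genes, and 4 in Htt Q111/+ (Ifitm3, Ifi44, Ifit1 and Rtp4), with 0.556%. In all 4 comparisons the 9 differences were positive and each had an unadjusted p under 0.05 by limma. Of all 17639 genes tested, 916 in Htt +/+ and 1135 in Htt Q111/+ had such a p against control ASO. Against saline 1859 had it in Htt +/+ and 1089 in Htt Q111/+. By the exact permutation test, p in Htt Q111/+ against control ASO was 0.115 for Isg15 and 0.0844 for Ifit2. It was under 0.05 for the other genes and comparisons. The median of the 9 was 0.81 in Htt +/+ and 0.75 in Htt Q111/+ against control ASO, and 0.66 and 0.81 against saline, beside a median over all genes tested of between -0.01 and 0.00. The comparisons with control ASO and with saline share their Htt ASO mice and are not independent of each other.

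The count in Htt +/+ against control ASO depended on single mice. It was 3 without Htt ASO replicate 2 (Ifi44, Ifit1 and Usp18), 3 without control ASO replicate 1 (the same genes), 1 without control ASO replicate 3 or 4 (Ifi44), and 2 without control ASO replicate 5 (Ifi44 and Usp18). Without both control ASO mice of high marker sums it was 3 (Ifi44, Ifitm3 and Usp18), and the count over genotype was then 7, without Isg15 and Ifit2. Of 17818 genes tested in that fit, 55 were called in Htt +/+ and 204 over genotype. In Htt Q111/+ the call of Ifit1 against control ASO was lost without control ASO replicate 1, 2 or 5 or Htt ASO replicate 3 or 4 (adjusted p from 0.0502 to 0.0767), which left 2, and Rtp4 was gained there without Htt +/+ Htt ASO replicate 2 or Htt +/+ saline replicate 1 (adjusted p from 0.0442 to 0.0483). All 9 differences stayed positive in each of these fits. Counts over all genes are not given for the fits that leave out 1 mouse. A loss of calls among the 9 there cannot be told apart from a loss over all genes.

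Calls against saline within a genotype also rested on single mice. In Htt +/+ the call of Ifit1 was lost without Htt ASO replicate 2 or 3 or saline replicate 2, 3, 5 or 6 (adjusted p from 0.058 to 0.083), and that of Ifit2 without Htt ASO replicate 2, 3 or 5 or saline replicate 3, 4 or 6 (adjusted p from 0.0677 to 0.118). In Htt Q111/+ the call of Rtp4 was lost without Htt ASO replicate 2, 3 or 4 or saline replicate 2, 3, 4 or 5 (adjusted p from 0.0742 to 0.134), and Usp18 was gained without Htt +/+ Htt ASO replicate 3 or 6 (adjusted p from 0.0423 to 0.0427).

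Complete separation of the groups was counted apart from the fit. Every Htt ASO mouse lay above every control ASO mouse for 6 of the 9 genes in Htt +/+ (Ifit1, Isg15, Usp18, Bst2, Rtp4 and Ifi44), as for 0.448% of all genes tested, and for 5 in Htt Q111/+ (Ifit1, Usp18, Bst2, Ifitm3 and Ifi44), as for 0.765%. Against saline the counts were 3 in Htt +/+ (Ifit2, Ifitm3 and Ifi44), with 0.748% of all genes, and 5 in Htt Q111/+ (Ifit1, Usp18, Bst2, Ifitm3 and Ifi44), with 0.635%. Within each of the 6 L numbers, over both genotypes, the mean log2 CPM of the Htt ASO mice exceeded that of the control ASO mice for all 9 genes, by 0.03 (Isg15) to 2.00 (Ifi44). It likewise exceeded the mean of the saline mice in each of the 5 L numbers that hold any. L numbers 3 and 4 hold only 1 control ASO mouse each, and 7 and 8 only 1 Htt ASO mouse each. That of 8 is Htt Q111/+ Htt ASO replicate 3, among the 3 mice of highest level. The share of all genes with this pattern was not computed. With the L number as covariate in limma, 4 calls within a genotype were lost, those of Ifit1 in Htt Q111/+ against control ASO (adjusted p = 0.0769) and saline (adjusted p = 0.101), of Rtp4 in Htt Q111/+ against saline (adjusted p = 0.192) and of Rtp4 in Htt +/+ against control ASO (adjusted p = 0.0511).

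**Figure D3:**
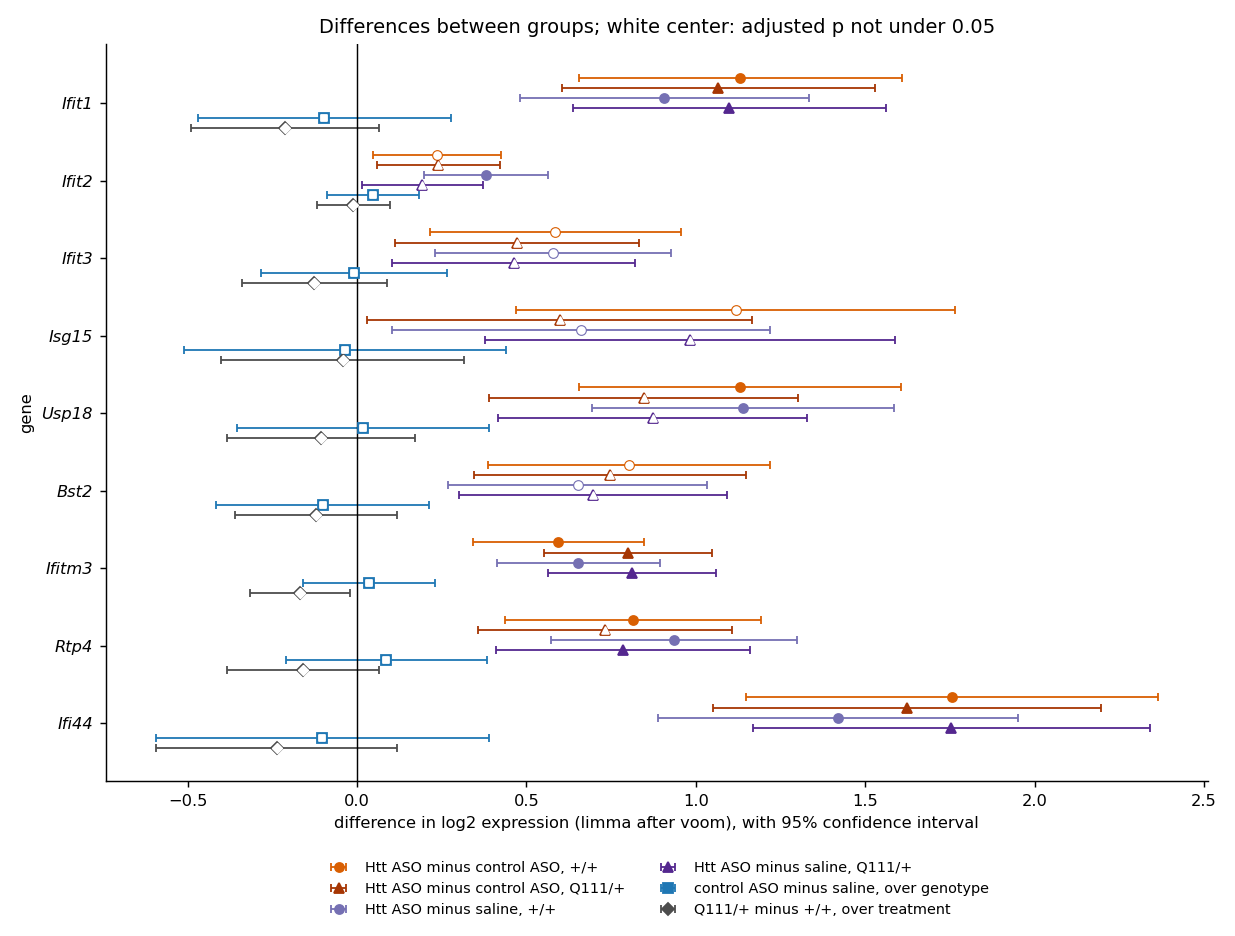
Difference in log2 expression with its 95% confidence interval (x axis) for each of the 9 genes (y axis) in 6 comparisons, given by color and marker; filled markers passed the threshold and white centers did not. The intervals of Htt ASO against either control lie above 0 for all 9 genes in both genotypes, and those of control ASO against saline include 0 for all 9.

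Control ASO, an oligonucleotide of the same chemistry without a match in the mouse genome, was compared with saline, which was injected on the same schedule. Over genotype the 9 differences lay between -0.10 (Ifi44) and 0.09 (Rtp4), with 4 of 9 positive and adjusted p of 0.880 or more. The largest 95% intervals were those of Ifi44 (-0.59 to 0.39) and Isg15 (-0.51 to 0.44), and the smallest that of Ifit2 (-0.09 to 0.18). None of the 9 had an unadjusted p under 0.05, either over genotype or within Htt +/+ or Htt Q111/+, where again 0% of the genes tested were called by limma and none by edgeR, while DESeq2 called 4 genes in Htt +/+ and 1 in Htt Q111/+, none of the 9 among them. At an unadjusted p under 0.05 there were 1357 genes over genotype, 2080 in Htt +/+ and 512 in Htt Q111/+. Isg15 had the widest range of the 9, with a difference of -0.46 in Htt +/+ and 0.38 in Htt Q111/+.

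The Q111 allele called none of the 9, although it called many other genes. Over treatment all 9 differences of Htt Q111/+ from Htt +/+ were negative, from -0.24 (Ifi44) to -0.01 (Ifit2), and the smallest adjusted p was that of Ifitm3 (-0.17, SE 0.07, adjusted p = 0.0629). Ifitm3 passed the threshold with sample quality weights, with the letters of the mouse names as a random effect, and on leaving out Htt +/+ control ASO replicate 1 or 3, Htt Q111/+ control ASO replicate 4 or Htt Q111/+ Htt ASO replicate 3. Within treatments none of the 9 was called, beside 21.2% of the genes tested in Htt ASO mice, 18.5% in control ASO mice and 17.4% in saline mice. The effect of Htt ASO did not differ detectably between genotypes for any of the 9. The interaction called 0% of the genes tested against control ASO (713 at an unadjusted p under 0.05) and 0% against saline (973), none of the 9 among either, and edgeR and DESeq2 called no gene. For Ifi44 the interaction against control ASO was -0.13 with a 95% interval of -0.97 to 0.70, for Isg15 it was -0.52 (-1.38 to 0.34), and for Ifitm3 it was 0.21 (-0.15 to 0.56), so that differences of effect within those intervals were not detectable with these numbers of mice.

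Individual mice differed in the same direction across the 9 genes. The mean of the 9 standardized log2 levels was highest in Htt +/+ Htt ASO replicate 3 (2.12 SDs above the mean of all mice), Htt +/+ Htt ASO replicate 2 (1.96) and Htt Q111/+ Htt ASO replicate 3 (1.93), and the next mouse stood at 1.02. These 3 mice gave the 3 highest values of 7 of the 9 genes, the exceptions being Ifit2 and Ifi44, and carried L numbers 4, 5 and 8. Their endothelial markers summed to 342, 318 and 286 CPM, their blood markers to 261, 100 and 78.7 CPM and their microglial markers to 721, 651 and 666 CPM, and the part of these in the gene levels was not tested. The lowest Htt ASO mouse stood at 0.379. Above it lay 1 mouse of the other treatments, Htt +/+ saline replicate 1 at 0.531, and the next of them was Htt Q111/+ control ASO replicate 3 at 0.187. Without the 3 highest mice 6 of the 9 genes were called over genotype against control ASO (Ifit1, Usp18, Bst2, Rtp4, Ifitm3 and Ifi44), with a median difference of 0.62, 1 in Htt +/+ (Ifi44) and 3 in Htt Q111/+ (Ifit1, Ifitm3 and Ifi44). Of 17685 genes tested in that fit, 107 were called over genotype, 37 in Htt +/+ and 47 in Htt Q111/+. The same 6 of the 9 were called against saline over genotype, beside 197 of all genes, and all 9 differences remained positive.

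**Figure D4:**
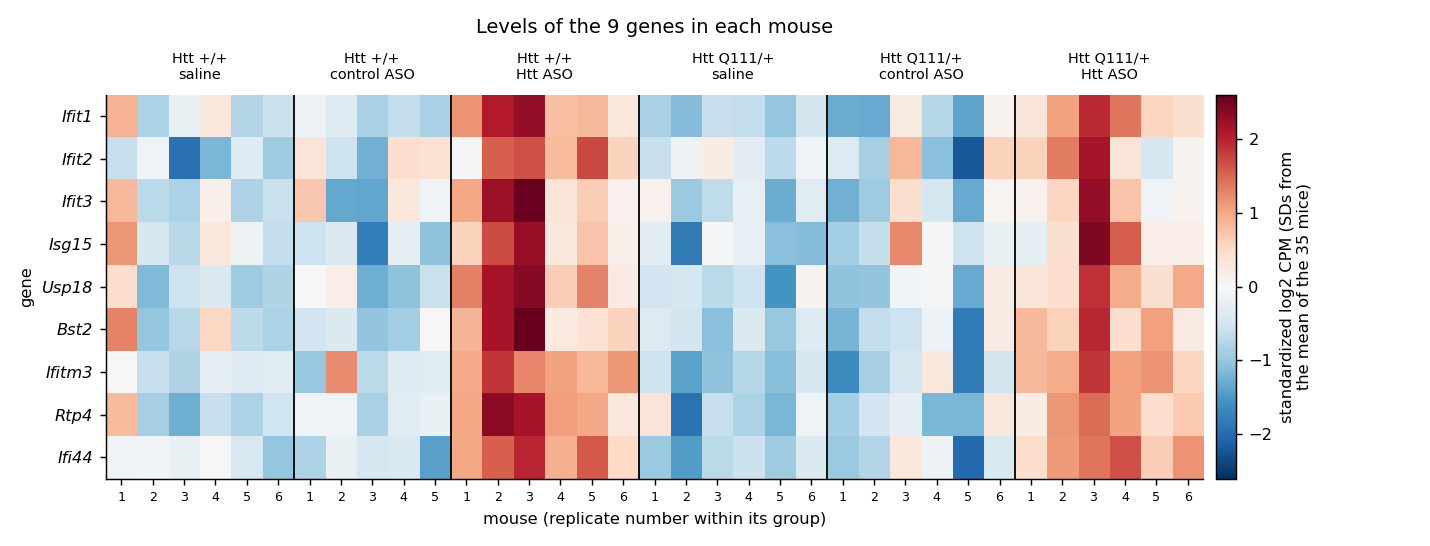
Standardized log2 CPM (color scale, in SDs from the mean of the 35 mice) of the 9 genes (rows) in each mouse (columns, by group and replicate). The reddest columns are those of Htt +/+ Htt ASO replicates 2 and 3 and Htt Q111/+ Htt ASO replicate 3, the 3 mice of highest mean. Several other Htt ASO mice also lay above the mean of the 35 mice for all 9 genes.

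With the group means subtracted, the 9 genes still varied together between mice. Over the 36 pairs of genes and 35 mice the correlation of the remaining deviations had a median of 0.60 and a range of 0.26 to 0.85, with 25 pairs over 0.5 and none negative. The pairs share libraries and mice, and the median correlation of each of the 9 with all genes tested was between -0.01 and 0.01. Ifit1 followed the mean of the other 8 most closely (r = 0.904), then Ifit3 (0.845), Usp18 (0.841) and Isg15 (0.833), whereas Ifitm3 (0.574) and Ifit2 (0.549) followed it least. Among 15081 other genes that averaged 1 CPM or more, those most like the mean profile of the 9 over the 35 mice were Oasl2 (r = 0.951), Gbp3 (0.950), Rnf213 (0.937), B2m (0.925), Ddx58 (0.919), H2-K1 (0.916), Trim30 (0.912), Iigp1 (0.910), Rsad2 (0.904) and Oas1a (0.902), whereas 1% of those genes exceeded 0.576 and their median was -0.03. With group means subtracted the first were Oasl2 (0.906), Rnf213 (0.866), Gbp3 (0.851) and Mpa2l (0.833), whereas 1% exceeded 0.442.

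Other genes of the interferon pathway were read from lists of named genes, in the comparison of Htt ASO with control ASO over genotype. Of the interferon genes themselves, 4 of 13 had a row (Ifnab, Ifne1, Ifnz and Ifng), none reached a mean of 0.1 CPM and none was tested, so that a change in them was not detectable at this depth. Among receptors and their JAK and STAT partners 1 of 13 rose, the IRF9 gene listed as Isgf3g (0.28, adjusted p = 0.0460), beside Stat2 at 0.13 (adjusted p = 0.0826). Among the interferon regulatory factors 1 of 8 rose, Irf7, which encodes the factor that amplifies the type I response, with 1.73 (adjusted p = 1.59e-09).

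Nucleic acid sensors rose in 6 of 19 cases, and the 3 with the smallest adjusted p were Zbp1, a sensor of Z-form nucleic acid (2.15, adjusted p = 2.36e-06), Ifih1, which encodes MDA5 (0.53, adjusted p = 3.37e-05), and Ddx58, which encodes RIG-I (0.41, adjusted p = 0.000935). Of the 4 partners of ISG15 tested, 2 rose, Trim25 (0.31, adjusted p = 0.00199) and the activating enzyme gene Uba7, listed as Ube1l (0.28, adjusted p = 0.00944). Other antiviral effectors rose in 13 of 26 cases, led by Slfn5 (0.64, adjusted p = 1.29e-07), Lgals9 (0.60, adjusted p = 2.6e-07) and Ifi35 (0.44, adjusted p = 3.36e-05). None of the genes in these lists fell.

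Other families of genes downstream of interferon were read in the same way. Oligoadenylate synthetase genes, whose products activate RNase L on sensing double-stranded RNA, rose in 4 of 9 cases, with Oas2 at 1.92 (adjusted p = 2.68e-11). Of the interferon-inducible GTPases 11 of 14 rose, with Tgtp (1.11, adjusted p = 4.97e-10), Gvin1 (0.87, adjusted p = 1.59e-09) and Iigp2 (0.64, adjusted p = 4.11e-08) the first. MHC class I and antigen processing genes rose in 7 of 12 cases, with H2-K1 (0.71, adjusted p = 2.68e-11), H2-Q7 (1.90, adjusted p = 2.6e-09) and H2-D1 (0.62, adjusted p = 2.67e-08) the first. Of the relatives of the 9 genes in the same gene families 1 of 6 rose, Rtp3 (0.86, adjusted p = 0.0248).

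**Figure D5:**
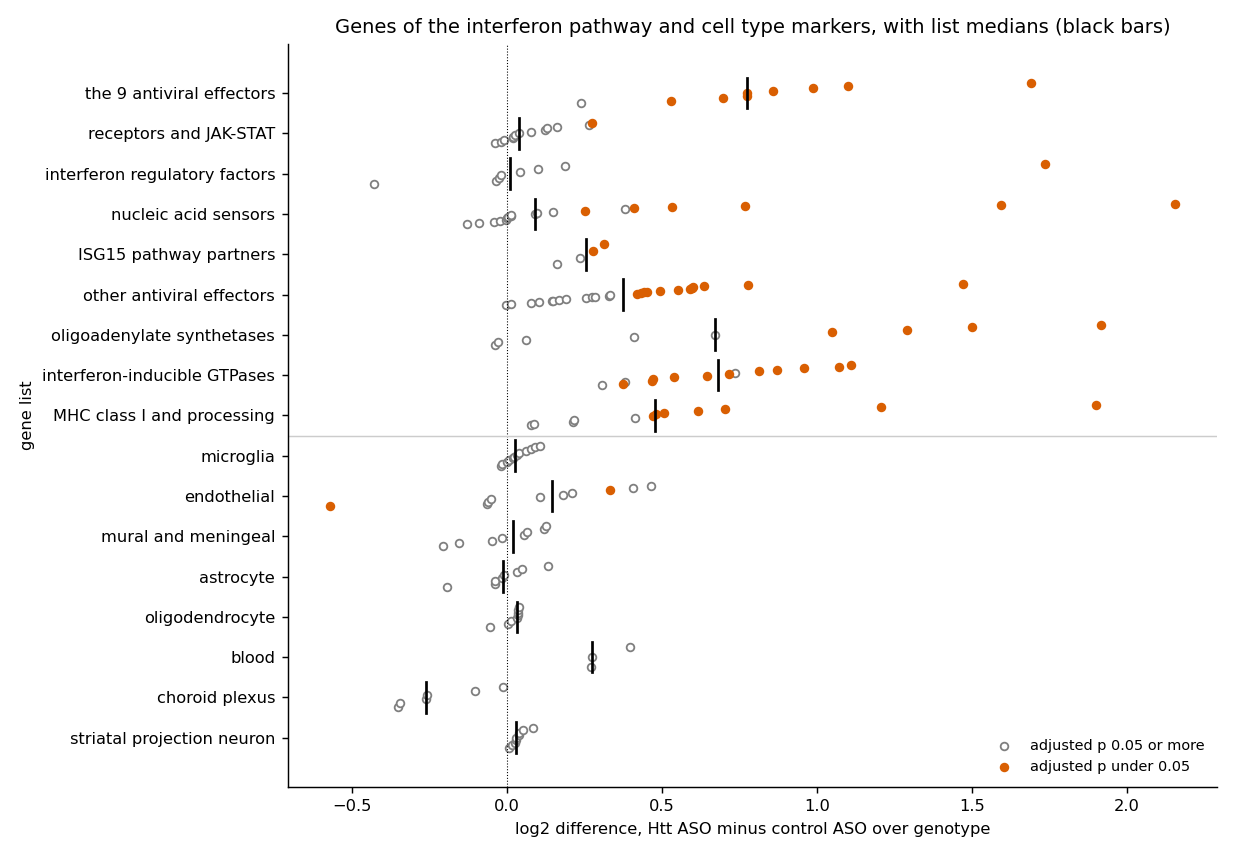
Log2 difference of Htt ASO from control ASO over genotype (x axis) for each gene tested in 17 lists (y axis), with the list's median as a black bar; filled points passed the threshold. The 9 antiviral effectors have a median of 0.77, and the 8 lists of cell types below the gray line hold 2 filled points.

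Markers of cell types were read in the same comparison. None of 12 microglial markers was called (median 0.03, range -0.02 to 0.11), and their sums overlapped, at 588 to 721 CPM on Htt ASO, 559 to 721 CPM on control ASO and 622 to 701.5 CPM on saline. Of 14 leukocyte markers 12 were too low to test and 9 averaged under 0.1 CPM, among them Cd3e (mean 0.0242 CPM), Cd3d (0.0154 CPM) and S100a8 (0.0587 CPM). The 2 tested, Ptprc and Cd4, were not called, and Cd4 (mean 92.7 CPM) made up most of the list's sum of 75.3 to 128 CPM on Htt ASO and 81.0 to 124 CPM on control ASO. Among 10 endothelial markers Ly6c1 rose (0.33, adjusted p = 0.000401) and Tek fell (by 0.57 on the log2 scale, adjusted p = 1.65e-05), with a median of 0.14 and sums of 260 to 342 CPM on Htt ASO, 245 to 427 CPM on control ASO and 249 to 314 CPM on saline. None of 8 mural and meningeal, 8 astrocyte, 8 oligodendrocyte, 3 blood, 6 choroid plexus or 9 striatal projection neuron markers was called. The blood markers had a median of 0.28 and the choroid plexus markers one of -0.26. Both medians and the endothelial values include the Htt +/+ control ASO mice of high marker sums, and were not read without them. The part of any of these markers in the levels of the 9 genes was not tested.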

How the data were processed

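Striatal RNA of 35 mice in 6 groups was measured, with 1 library per mouse. The authors prepared stranded mRNA libraries (TruSeq), sequenced paired reads, aligned them to the mouse transcriptome (MGSCv37, mm9) with Bowtie 0.12.9 and deposited the expected counts of RSEM 1.1.18 per gene, not scaled for library size. RSEM divides reads that fit several transcripts, which matters for genes with near copies such as Ifit3. Whole numbers made up only 5.71% of the counts of Ifit1, 48.6% of those of Isg15 and 74.3% of those of Ifit2. Divided reads may thus enter these genes too. Of the 50-base stretches of Ifit1, 7.06% also occur in Ifit1bl2. The label ASO1 was taken as Htt ASO, the treatment that remained for it.

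The 10 genes and all gene lists were chosen with earlier results of these data known, so no test over a list was made. Counts were filtered with filterByExpr (minimum count 10, minimum total 15), scaled by TMM and fitted with voom and limma 3.58.1 in R 4.3.3, with 1 mean for each group (29 residual degrees of freedom). Adjustment for multiple testing (Benjamini-Hochberg) ran over 17639 genes. Log2 CPM used a prior count of 2. Group differences of single genes were also tested by exact two-sided permutation. Likeness is Pearson's correlation with the mean standardized level of the 9 genes. Named besides the 9 were the 10 most alike genes, the 5 most alike with group means subtracted, up to 3 genes of smallest adjusted p in each pathway list, and Htt. A result that this rule would add is not reported here. Single marker genes were named after their values were seen. List genes were matched by symbol or RefSeq synonym, and lengths and shared 50-base stretches came from GENCODE M21.

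Counts of any 2 mice of a group differed by more than chance counting gives (chi-square over its degrees of freedom was at least 3.57 in 85 pairs), so no library was taken as deposited 2 times. Replicate numbers follow accession order and pair nothing. On simulated counts with 200 of 17639 genes changed, for Htt ASO against control ASO over genotype, limma called 172, with 77 of 100 at 1.5-fold and 95 of 100 at 2-fold, and 6 unchanged genes. Alternatives were edgeR 4.0.16 and DESeq2 1.42.0 on rounded counts, library totals, no filter, a mean of at least 1 CPM, the L number as covariate, sample quality weights, name letters as random effect, a fit of only those groups that a comparison needs, and fits that drop 1 mouse, the one with left tissue included. Leaving out the 3 highest mice, the high saline mouse, or the 2 control ASO mice of high marker sums was chosen after seeing the data.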

Additional observations from a re-analysis of the deposited data

Results flagged for a closer look

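Of 54 sets of values (9 genes in 6 groups), 6 had a highest mouse set far apart from the rest of its group by Dixon's test. For normal values chance gives about 1 in 20 such sets. The test used CPM without a log, and the 9 genes vary together between mice. The 6 sets can therefore not be read against that rate. In Htt Q111/+ Htt ASO replicate 3, Ifit3 reached 25.6 CPM (next 16.8) and Usp18 3.96 CPM (next 2.69). This mouse is among the 3 of highest level across the 9 genes. In Htt +/+ Htt ASO replicate 2, another of those 3, Ifitm3 reached 14.5 CPM (next 12.3).

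Among control mice, Isg15 reached 2.15 CPM in Htt Q111/+ control ASO replicate 3 (next 1.21), and Rtp4 reached 2.80 CPM in Htt +/+ saline replicate 1 (next 1.74). Ifitm3 reached 12.2 CPM in Htt +/+ control ASO replicate 2 (next 7.78), the mouse in which endothelial and blood markers each summed to 427 CPM. None of the 18 tests of a difference in effect between genotypes passed the threshold.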

How the results depend on the processing

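All 9 genes were higher on Htt ASO than on either control in every alternative, over genotype and within each genotype, and none of the differences reversed. Among the differences of single genes under the alternatives other than leaving out 1 mouse, 654 kept their side of the threshold, 32 fell below it and 16 rose above it; of 1890 with 1 mouse left out, 1818 kept it, 61 fell below and 11 rose above. The number of the 9 called over genotype against control ASO ranged from 6 to 9 with 1 mouse left out, and against saline from 8 to 9.

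In Htt +/+ against control ASO, 5 became 7 by DESeq2, 1 with only the groups compared and 1 without the 3 highest mice. The count was 3 without the 2 control ASO mice of high marker sums, and 1 to 6 with 1 mouse left out. Over all genes, 52 called became 77 by DESeq2, 37 without the 3 highest mice and 55 without those 2 mice. Counts over all genes are not given for fits of only the groups compared or with 1 mouse left out. In Htt Q111/+ against control ASO, 3 became 6 by DESeq2, 2 with the L number as covariate (Ifit1 lost), and 2 to 4 with 1 mouse left out. Over all genes, 63 called became 98 by DESeq2 and 51 with the L number as covariate. In Htt +/+ against saline, 6 became 3 with only the groups compared and 3 without the 3 highest mice, and 4 to 7 with 1 mouse left out. Over all genes, 128 called became 87 without the 3 highest mice. In Htt Q111/+ against saline, 4 became 7 by DESeq2 and 2 with the L number as covariate, and 3 to 5 with 1 mouse left out. Over all genes, 98 called became 152 by DESeq2 and 77 with the L number as covariate. For Htt Q111/+ against Htt +/+ over treatment, 0 became 1 (Ifitm3) with sample quality weights and with the name letters as random effect, and 0 to 1 with 1 mouse left out. The cause of these changes was not tested, and the fits that leave mice out also hold fewer mice. The genes most alike kept 10 of 10 and 5 of 5 with a prior count of 0.5, and 7 of 10 and 4 of 5 by Spearman's rho. The L number and the name letters, which groups share, were fitted as blocks above. No paired analysis was possible because the replicate numbers follow accession order only and pair no mice across groups.

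Counts of 8 to 101 per mouse for Ifi44 and 19 to 135 for Isg15 limit the precision of both. With 5 or 6 mice a group, the interval of the difference in response between genotypes spanned -1.38 to 0.34 for Isg15 and -0.97 to 0.70 for Ifi44.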
